A study of Mus musculus with 15 samples.

Results

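A set of 10 genes that carry sodium, chloride or protons across the cecal epithelium was followed in mice whose gut bacteria had been depleted with antibiotics. They are the anion exchangers Slc26a3 and Slc26a2, the sodium/proton exchangers Slc9a3 and Slc9a2, the 3 subunits of the epithelial sodium channel (Scnn1a, Scnn1b and Scnn1g), the chloride channel Cftr, the sodium-potassium-chloride cotransporter Slc12a2 and the nongastric proton pump Atp12a. They were chosen by gene symbol from the table of cecal expression, and all 10 were found among its 45804 genes with a unique symbol. The 7 AIMD (antibiotic-induced microbiome-depleted) mice were wild-type C57BL/6 males gavaged with ampicillin, vancomycin, metronidazole, neomycin and the antifungal amphotericin B. The 8 vehicle-treated mice were wild-type C57BL/6 males gavaged with water. Gavage was given 2 times a day for 30 days in both groups, and the labels give an age of 20 weeks for every mouse, which is older than the starting age in the study's methods plus 30 days. AIMD mice kept some bacteria, and the drugs reached the host as well as its microbes, so the comparison is of antibiotic cocktail against water. Several mice shared a cage, and the labels do not say which. Expression is given as FPKM, which counts the reads of a gene per kilobase of its length and corrects for library depth. Fold changes are differences of log2(FPKM + 0.5) tested with limma and adjusted by the Benjamini–Hochberg method over 11983 genes, and for genes near the added 0.5 they come out too small.

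The large intestine recovers salt and water by placing transporters on opposite faces of its epithelial cells. On the luminal face, a sodium/proton exchanger working beside a chloride/bicarbonate exchanger takes up sodium chloride without net charge, and the epithelial sodium channel takes up sodium with charge under the control of aldosterone. Secretion runs the other way, with Slc12a2 loading chloride from the blood side and Cftr letting it out into the lumen when cyclic nucleotides rise.

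Recovered read counts per mouse ran from 8679666 to 18108567 in AIMD mice and from 4372401 to 14405931 in vehicle-treated mice, so low genes were counted more precisely in AIMD mice. The whole emptied cecum was used, and its RNA carried the epithelial markers Epcam, with a mean FPKM of 1873 (AIMD) and 1635 (vehicle), and Car1, the abundant carbonic anhydrase of the large-intestinal surface, at 26472 and 22755. Of 7 epithelial markers, Vil1, Krt8 and Cldn7 were higher in AIMD mice, Krt18 was lower and 3 did not pass. Of 6 surface colonocyte markers, which include Slc26a3 itself, Ceacam1 was higher by 0.90 on the log2 scale, Aqp8 was lower (-0.93) and 4 did not pass. The part of such epithelial differences in the transporter values was not tested. The FPKM of 5 smooth muscle markers summed to between 203 and 773 in AIMD mice and between 496 and 2898 in vehicle-treated mice, with the top value in vehicle replicate 8. Fabp6, the ileal bile acid binding protein, was above 200 FPKM in 4 mice, namely AIMD replicate 6 and vehicle replicates 5, 7 and 8. The circadian clock genes split both groups, with AIMD replicates 1 to 3 and vehicle replicates 1 to 4 on the side where Arntl was high and the other 8 mice on the side where it was low. The labels give no time of sacrifice, so clock phase and any batch that follows the same split cannot be told apart.

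In AIMD mice, 4 members were higher and 1 was lower among the 9 that could be tested. Slc9a3, Slc9a2, Scnn1a and Scnn1g were higher, and Slc12a2 was lower. Slc26a3, Slc26a2, Scnn1b and Cftr did not pass the adjusted p of 0.05, and Atp12a was too low for the test. Over all genes tested, 19.4% were higher and 16.7% were lower. Slc9a3 and Scnn1g met the expression minimum through their AIMD values alone, so their count adds nothing to a comparison with those shares. In whole tissue, more transcript per cell and more cells that carry it cannot be told apart.

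**Figure D1:**
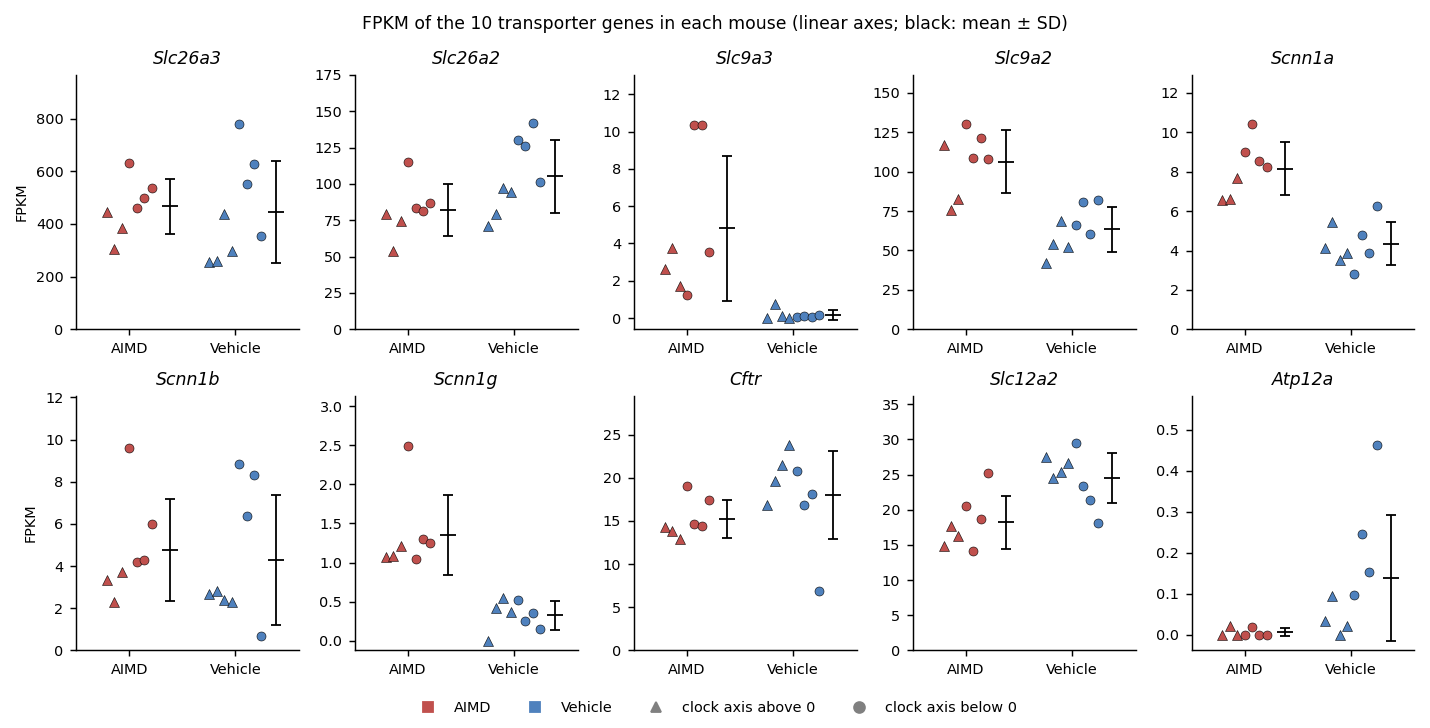
FPKM of each of the 10 genes in every mouse (vertical axes linear, each with its own scale), AIMD mice in red and vehicle-treated mice in blue, triangles for mice on the Arntl-high side of the clock axis and circles for the others, black bars for mean ± SD. The AIMD mice lie above all vehicle-treated mice for Slc9a3, Scnn1a and Scnn1g, and the lowest Cftr and Scnn1b values both belong to vehicle replicate 8.

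Slc9a3, also called NHE3, is the luminal exchanger that brings sodium into the cell in return for a proton. Its gene lies on the plus strand of chromosome 13, from 74121457 to 74169442 on GRCm38. In AIMD mice the FPKM was 2.64, 3.78, 1.71, 1.25, 10.4, 10.4 and 3.56 in replicates 1 to 7. The 8 vehicle-treated mice ran from 0, in replicates 1 and 4, through a median of 0.0931 to 0.743 in replicate 2. The lowest AIMD mouse therefore stood above the highest vehicle-treated mouse. In absolute FPKM the AIMD mice differed among themselves more than the vehicle-treated mice did. Relative to the mean they differed less, as the SD was below the mean in AIMD mice and above it in vehicle-treated mice. AIMD mice averaged 4.81 ± 3.90 (SD, n = 7) and vehicle-treated mice 0.163 ± 0.242 (SD, n = 8), a ratio of 29.5 that was 60.0 without vehicle replicate 2. On the log2 scale the difference was 2.74 (standard error, SE, 0.35, adjusted p = 2.7e-05 by limma). The exact permutation test of the FPKM gave p = 0.000155 (two-sided), the smallest that 7 mice against 8 allow.

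The size of the Slc9a3 difference rests on few reads in the vehicle-treated mice. AIMD mice had 26 to 346 reads each and 1122 together. Vehicle-treated mice had 0 to 25 each and 34 together, of which 25 came from replicate 2. These counts were recovered with about the shortest gene length that gives whole reads, and a longer length would raise them. With a pseudocount of 0.1 the log2 fold change was 4.18, and limma voom on the recovered reads gave 5.06. Slc9a3 is also a small-intestinal gene, so its values are set beside those of Fabp6. Vehicle replicates 5, 7 and 8, with Fabp6 at 1041, 1062 and 1718 FPKM, had Slc9a3 at 0.0778, 0.0613 and 0.184. AIMD replicates 5 and 6, which shared the highest Slc9a3 at 10.4, had the lowest and the highest Fabp6 of the AIMD mice, at 8.09 and 225. The other 5 AIMD mice had Fabp6 between 9.22 and 43.5. The part of small-intestinal RNA in the Slc9a3 values was not tested. Without the 4 mice with high Fabp6, a choice made after the values were seen, the log2 fold change was 2.48 (adjusted p = 0.00066 by limma). All 4 lie on the Arntl-low side of the clock split, so that setting also changes the balance of both sides. Of the 6 small-intestinal markers, 4 could be tested and 1, Apoa4, was higher in AIMD mice. Their summed FPKM was 33.2 to 273 in AIMD mice and 20.5 to 1779 in vehicle-treated mice. The defining markers Sis and Lct averaged 0.824 and 0.0154 over AIMD mice and 1.23 and 0.0394 over vehicle-treated mice. Sis ran from 0.0599 to 4.62 FPKM in AIMD mice and from 0 to 3.83 in vehicle-treated mice, so its averages do not describe single mice.

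**Figure D2:**
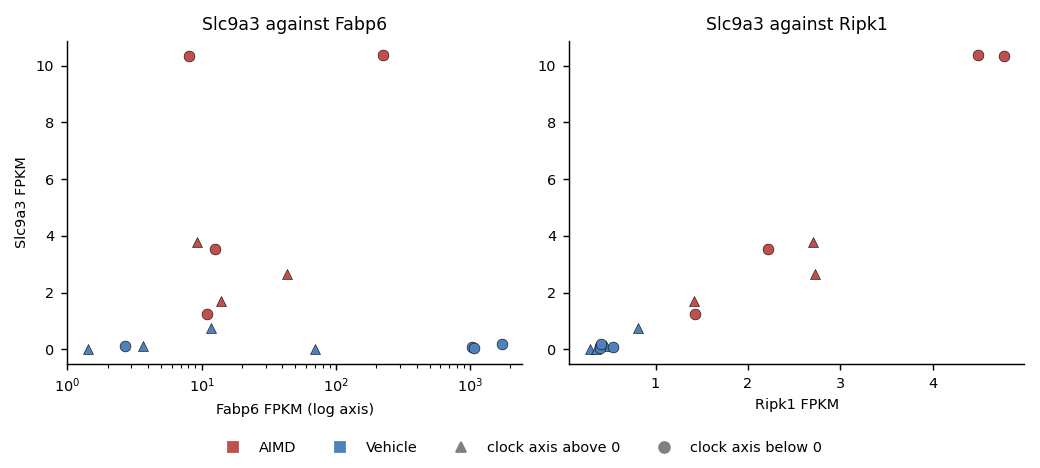
Slc9a3 FPKM of each mouse (vertical axis, linear) against Fabp6 FPKM (left, log axis) and Ripk1 FPKM (right, linear), AIMD mice in red and vehicle-treated mice in blue, triangles for the Arntl-high side of the clock axis. The 3 vehicle-treated mice with the most Fabp6 have Slc9a3 of at most 0.184, the AIMD mouse with the most Fabp6 (225) has the most Slc9a3, and the AIMD mice with the most Slc9a3 also have the most Ripk1.

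The promoter of Slc9a3 is shown because its transcript had the largest difference of the members, and it is set below beside those of Scnn1g and Scnn1b, neighbouring genes for subunits of the same channel. RefSeq (GRCm38.p6) gave promoter sequence for 5 of the 10 members. The 250 bases before each start are written from 5′ to 3′ on the strand of the gene. Capitals mark the E-box CACGTG, the letters bound by clock factors, and the GC box GGGCGG, the letters bound by Sp1-like factors, each searched on both strands.
Slc9a3, chr13:74121163-74121412: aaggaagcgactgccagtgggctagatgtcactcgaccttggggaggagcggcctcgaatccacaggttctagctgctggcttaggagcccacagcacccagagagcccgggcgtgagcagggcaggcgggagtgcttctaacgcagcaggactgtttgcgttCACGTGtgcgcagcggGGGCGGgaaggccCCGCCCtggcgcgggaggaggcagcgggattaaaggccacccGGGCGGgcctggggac
Scnn1g, chr7:121734229-121734478: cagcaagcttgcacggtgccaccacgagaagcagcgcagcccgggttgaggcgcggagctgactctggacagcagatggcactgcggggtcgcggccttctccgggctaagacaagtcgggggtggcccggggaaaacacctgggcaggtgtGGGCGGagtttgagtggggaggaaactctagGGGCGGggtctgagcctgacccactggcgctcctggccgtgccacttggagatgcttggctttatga
Scnn1b, chr7:121864788-121865037: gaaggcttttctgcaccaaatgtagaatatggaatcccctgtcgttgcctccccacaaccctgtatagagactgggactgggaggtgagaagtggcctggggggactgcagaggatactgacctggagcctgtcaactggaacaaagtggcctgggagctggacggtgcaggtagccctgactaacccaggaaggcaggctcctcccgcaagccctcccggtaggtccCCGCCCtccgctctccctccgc
The Slc9a3 window held an E-box whose first base lay 87 bases before the start and 3 GC boxes at 71, 58 and 16 bases before it, with a GC content of 67.6% against a median of 52.4% over all promoters. Scnn1g had GC boxes at 98 and 67 bases before its start, and Scnn1b had a GC box at 22. Among 32851 promoter windows of this length, 6.02% held the E-box and 32.7% held the GC box. Of the 5 members with sequence, 1 held the E-box and 4 held the GC box. The D-box TTATGTAA and the steroid receptor letters AGAACA, found in 0.819% and 16.1% of all windows, matched none of the 5. A match is only a match of letters, and none of these windows was tested for binding.

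Slc9a2, or NHE2, is the second luminal sodium/proton exchanger of the large intestine, and it was far more abundant than Slc9a3 in both groups. Its gene lies on chromosome 1, from 40680574 to 40769273. AIMD mice ran from 75.9 through a median of 109 to 130 FPKM, and vehicle-treated mice ran from 42.0 through a median of 63.4 to 82.3. The ranges touched, with 6 of the 7 AIMD mice above every vehicle-treated mouse. AIMD mice averaged 106 ± 20.0 (SD, n = 7) and vehicle-treated mice 63.3 ± 14.1 (SD, n = 8), which is 0.75 apart on the log2 scale (SE 0.16, adjusted p = 0.0018 by limma). Within each side of the clock split the ranges did not overlap. The share of all genes tested that separated on both sides is not given here, so this is a description only. On the Arntl-high side, 3 AIMD mice had 75.9 to 117 and 4 vehicle-treated mice 42.0 to 68.6. On the other side, 4 AIMD mice had 108 to 130 and 4 vehicle-treated mice 60.4 to 82.3.

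Slc9a3 rose more than Slc9a2, so the ratio between both exchangers was lower in AIMD mice. The log2 ratio of Slc9a2 to Slc9a3, with 0.5 added to each FPKM because 2 mice had no Slc9a3 reads, averaged 4.63 ± 1.04 (SD, n = 7) over AIMD mice and 6.62 ± 0.505 (SD, n = 8) over vehicle-treated mice. The difference of -1.99 had an exact permutation p of 0.00062, or 0.0019 after adjustment over the 6 ratios compared. It follows from the fold changes of both genes already given and adds no support of its own. Its size depends on the added 0.5, since the median Slc9a3 of vehicle-treated mice was 0.0931 FPKM. Slc9a2 nonetheless stood above Slc9a3 in every mouse, since the lowest log2 ratio was 3.33. The deposited FPKM of Slc9a3 gave whole reads at a length of 2490 bases and not at the 5504 bases of its GENCODE M21 exons. Multiples of 2490 bases would give whole reads too, and the length the authors used is not given in the sources used here. The level of Slc9a3 relative to other genes depends on that length.

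Slc26a3, or DRA, exchanges luminal chloride for bicarbonate and is the partner of the sodium/proton exchangers in salt uptake. Its gene lies on chromosome 12, from 31390871 to 31473917, and it was the most abundant member in both groups. Its FPKM ran from 306 through a median of 459 to 629 in AIMD mice, and from 257 through a median of 396 to 780 in vehicle-treated mice. The AIMD range lay within the vehicle range. With means of 466 ± 104 (SD, n = 7) and 445 ± 192 (SD, n = 8), the log2 fold change was 0.15 with a 95% interval of -0.36 to 0.65 (adjusted p = 0.66 by limma). The log2 ratio of Slc26a3 to Slc9a3, with the same 0.5 added, averaged 6.75 ± 1.11 (SD, n = 7) over AIMD mice and 9.34 ± 0.836 (SD, n = 8) over vehicle-treated mice. It differed by -2.59 (exact permutation p = 0.00047, adjusted 0.0019), which likewise follows from the fold changes of both genes.

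Slc26a2, which exchanges sulfate and other anions, had 53.9 to 115 FPKM with a median of 81.2 in AIMD mice, while vehicle-treated mice had 70.8 to 142 (median 99.3). The ranges overlapped widely, although 3 vehicle-treated mice lay above every AIMD mouse. The log2 fold change was -0.35 with a 95% interval of -0.71 to 0.01 (adjusted p = 0.12 by limma). It passed the threshold with the clock axis in the model, at the same size and an adjusted p of 0.033. Slc26a2 and Slc26a3 varied together from mouse to mouse, with a Pearson r of 0.914 over 15 mice after centring within groups, a description that includes the clock split both genes follow.

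The epithelial sodium channel is built from an alpha, a beta and a gamma subunit, and aldosterone raises beta and gamma in the distal colon. In AIMD mice Scnn1a and Scnn1g were higher, and Scnn1b did not pass. Scnn1a, the alpha subunit on chromosome 6 (125320659 to 125344943), ran from 6.56 through a median of 8.26 to 10.4 FPKM in AIMD mice and from 2.81 through a median of 4.02 to 6.25 in vehicle-treated mice. No vehicle-treated mouse reached the lowest AIMD mouse. AIMD mice averaged 8.15 ± 1.36 (SD, n = 7) and vehicle-treated mice 4.34 ± 1.10 (SD, n = 8), with a log2 fold change of 0.85 (SE 0.15, adjusted p = 0.00036 by limma).

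Scnn1g, the gamma subunit on chromosome 7 (121734479 to 121768475), was the least abundant of the 3. Its FPKM in AIMD replicates 1 to 7 was 1.07, 1.09, 1.22, 2.49, 1.05, 1.30 and 1.25, and in vehicle-treated mice it ran from 0 through a median of 0.359 to 0.542. AIMD replicate 4 stood far above its group, and the other 6 AIMD mice kept within 0.252 of each other, still above every vehicle-treated mouse. The log2 fold change was 1.16 (SE 0.18, adjusted p = 0.00012 by limma), and voom on the recovered reads, of which there were 362 from AIMD mice and 65 from vehicle-treated mice, gave 2.24. Over all genes tested, 5.27% had AIMD values that all lay above the vehicle values. Scnn1a, Slc9a3 and Scnn1g did so too, but Slc9a3 and Scnn1g were tested only through their AIMD values, so their count is not read against that share.

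Scnn1b, the beta subunit (121865038 to 121918514), lies 96.56 kb beyond Scnn1g on the same strand, and its values overlapped between groups. It ran from 2.28 through a median of 4.18 to 9.63 FPKM in AIMD mice and from 0.664 through a median of 2.74 to 8.85 in vehicle-treated mice. The lowest value belonged to vehicle replicate 8 and lay 1.65 below the next. The log2 fold change was 0.31 with a 95% interval of -0.50 to 1.12 (adjusted p = 0.55 by limma). The log2 ratio of Scnn1g to Scnn1b, with 0.5 added to each, averaged -1.44 ± 0.359 (SD, n = 7) over AIMD mice and -2.29 ± 0.943 (SD, n = 8) over vehicle-treated mice. Its difference of 0.85 had an exact permutation p of 0.046 and an adjusted p of 0.092 over the 6 ratios, so it did not pass after adjustment. That difference depends on the added 0.5, since the median Scnn1g of vehicle-treated mice was 0.359 FPKM. The log2 ratio of Scnn1b to Scnn1a differed by -0.52 (exact permutation p = 0.41, adjusted 0.41).

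Cftr and Slc12a2 are the exit and the entry step of chloride secretion. Slc12a2, or NKCC1, was lower in AIMD mice. It ran from 14.2 through a median of 17.7 to 25.1 FPKM in AIMD mice and from 18.2 through a median of 24.9 to 29.4 in vehicle-treated mice. The ranges overlapped, with 4 AIMD mice below every vehicle-treated mouse and 4 vehicle-treated mice above every AIMD mouse. On the log2 scale it fell by 0.43 (SE 0.13, adjusted p = 0.019 by limma). With the depth of each mouse as a covariate, added after the values were seen, the change was -0.41 and missed the threshold (adjusted p = 0.080).

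Cftr, on chromosome 6 (18170687 to 18322768), ran from 12.9 through a median of 14.5 to 19.0 FPKM in AIMD mice and from 6.92 through a median of 18.9 to 23.8 in vehicle-treated mice. The 6.92 of vehicle replicate 8 lay 9.91 below the next value, and 4 vehicle-treated mice stood above every AIMD mouse. With all mice the log2 fold change was -0.18 with a 95% interval of -0.60 to 0.24 (adjusted p = 0.50 by limma), and without vehicle replicate 8 it was -0.36 (adjusted p = 0.018). That mouse also had the most smooth muscle RNA, with a summed marker level of 2898, and the most enteric neuron and glia RNA, with 53.3 against 3.19 to 17.5 in the other vehicle-treated mice. The part of these tissues in its Cftr value was not tested. The gene Gm15592 overlaps Cftr on the opposite strand and is listed at 0 in all 15 mice. The log2 ratio of Cftr to Slc12a2 differed by 0.26 between groups (exact permutation p = 0.15, adjusted 0.22), and that of Slc26a3 to Cftr by 0.33 (p = 0.29, adjusted 0.35, same test).

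Scaling every mouse to the same FPKM total, in place of size factors, raised the median log2 fold change of all genes tested from 0.01 to 0.34. On that scale Slc26a2 was at 0.0070, Cftr at 0.17 and Slc12a2 at -0.081 (adjusted p = 0.71 by limma), and relative to the median of all genes they were at -0.33, -0.17 and -0.42. The 4 members that were higher stayed so on either scale.

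Atp12a, on chromosome 14 (56365068 to 56388550), encodes a proton pump that trades protons for potassium in the distal colon, and its transcript was nearly absent. AIMD mice had 2 reads in all, and vehicle-treated mice had 30, or 0 to 9 each. The gene Gm10873 overlaps Atp12a on the opposite strand, and its level is not given here. FPKM reached 0.0211 at most in AIMD mice and 0.463 in vehicle replicate 8, and 7 of the 8 vehicle-treated mice were above every AIMD mouse. Vehicle-treated mice had 0 to 0.0936 FPKM on the Arntl-high side of the clock split and 0.0981 to 0.463 on the other. Corrected for depth, the rate in AIMD mice was 0.0455 of that in vehicle-treated mice (95% interval 0.00527 to 0.179, which covers counting error only). Atp12a did not reach the expression minimum. The exact permutation test of its FPKM gave p = 0.0090. Limma without a minimum gave -0.31 on the log2 scale (adjusted p = 0.073), so the difference rests on very few reads.

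**Figure D3:**
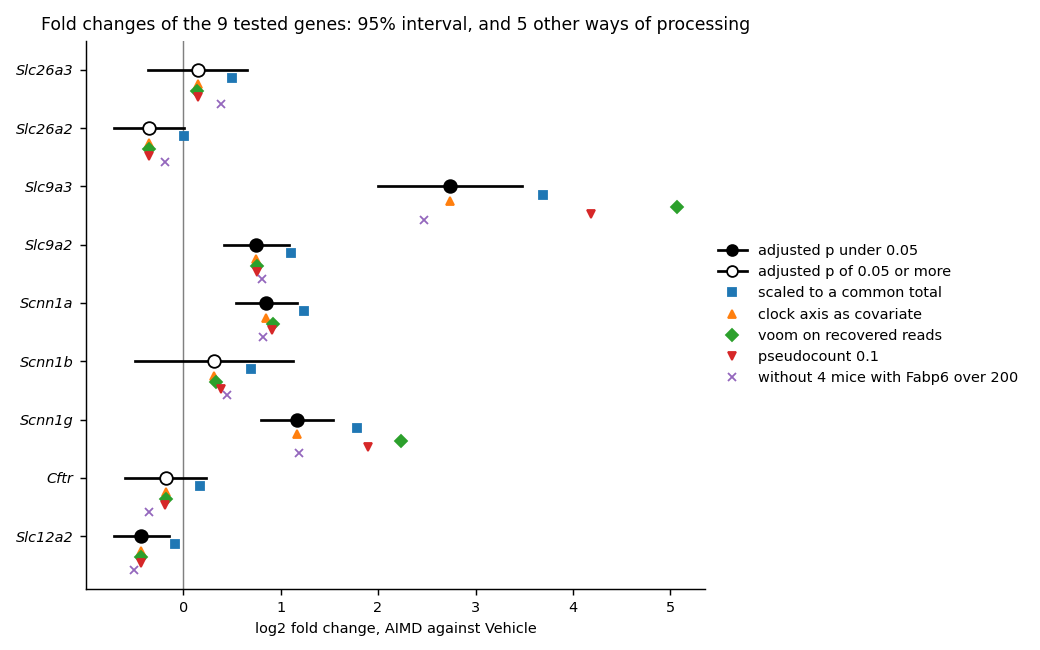
Log2 fold change of AIMD against vehicle-treated mice (horizontal axis) for the 9 tested genes, black circles and lines for the estimate with its 95% interval, filled where the adjusted p was under 0.05, and coloured symbols for 5 other ways of processing. Slc9a3, Slc9a2, Scnn1a and Scnn1g lie right of 0 under each of them, while Slc26a2 and Cftr cross 0 when all mice are scaled to a common total.

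Because FPKM is per length, levels can also be ranked within a group. In AIMD mice the order of means was Slc26a3 (466), Slc9a2 (106), Slc26a2 (82.1), Slc12a2 (18.2), Cftr (15.2), Scnn1a (8.15), Slc9a3 (4.81), Scnn1b (4.77), Scnn1g (1.35) and Atp12a (0.0057). Slc9a3 and Scnn1b could not be separated there, since Slc9a3 was the higher in 3 of 7 mice. In vehicle-treated mice Slc26a2 (105) stood above Slc9a2 (63.3) in all 8 mice, whereas in all 7 AIMD mice Slc9a2 was the higher. Slc9a3 ranked 9 of 10 in vehicle-treated mice. Its level there could not be separated from that of Scnn1g, which was higher in 5 of 8 mice, nor from that of Atp12a, which was lower than Slc9a3 in 2 of 8. The order depends on gene length, as M21 exon lengths, tried after the values were seen, put Slc12a2 (10.9) below Cftr and Slc9a3 (2.18) below Scnn1b (4.36) in AIMD mice. In vehicle-treated mice they also put Slc12a2 (14.6) below Cftr and Slc9a3 (0.0737) below Atp12a (0.137).

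Among the genes that act with these transporters, 66 were listed in 10 groups, 65 were in the table and 45 could be tested. In AIMD mice 13 of the 45 were higher (28.9%) and 4 were lower (8.89%), against 19.4% and 16.7% of all genes tested, and their median log2 fold change was -0.05 against 0.01 for all genes. Without the 4 mice with high Fabp6 the counts were 8 higher and 2 lower. Best2, Clcn2, Fxyd3, Guca2a, Nedd4, Gucy2c and Tsc22d3 then missed the threshold. Those 4 mice are all on the Arntl-low side, so Fabp6, clock side and the smaller number of mice cannot be told apart there.

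Of the 5 scaffolds and regulators of Slc9a3, 4 were tested and Ezr was higher. Ezr encodes ezrin, which ties luminal membrane proteins to actin, and it ran from 228 through a median of 342 to 436 FPKM in AIMD mice and from 108 through a median of 163 to 296 in the vehicle group. The log2 fold change of 1.10 (SE 0.20, adjusted p = 0.00055 by limma) was the largest rise of the 45. Slc9a3r1, the scaffold NHERF1, was at 289 ± 59.7 (SD, n = 7) and 243 ± 121 (SD, n = 8) and did not pass with all mice. Without vehicle replicate 8 it did, at 0.52 on the log2 scale (adjusted p = 0.037 by limma). The scaffold gene Pdzk1 was below the expression minimum. Of the other sodium/proton exchangers, 2 of 6 were tested and neither passed.

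Regulators of the epithelial sodium channel were all 11 tested, and 4 were higher and 1 lower. Nr3c2, the aldosterone receptor, rose by 0.62 (adjusted p = 0.0089 by limma), and Nr3c1, the glucocorticoid receptor, rose by 0.57. The call of Nr3c1 was lost without AIMD replicate 1, 5, 6 or 7 (0.51 to 0.56, adjusted p = 0.051 to 0.060). Nedd4l, the ubiquitin ligase that removes the channel from the membrane, had 6.71 to 9.91 FPKM in AIMD mice and 3.30 to 6.44 in vehicle-treated mice. Nedd4l values did not overlap, as for 5.27% of all genes tested in this direction, and its log2 fold change was 0.77 (adjusted p = 0.00054 by limma). Its relative Nedd4 rose by 0.68. Tsc22d3, the corticosteroid-induced gene GILZ, fell by 0.71 (adjusted p = 0.0067). Sgk1, the aldosterone-induced kinase, was at 107 ± 31.8 (SD, n = 7) and 164 ± 100 (SD, n = 8), and Hsd11b2, which inactivates glucocorticoids, at 182 ± 33.1 and 151 ± 44.5, and neither passed.

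Secretagogue receptors and second messengers moved in both directions, with 2 of 7 tested genes higher and 2 lower. Guca2a, which encodes guanylin, averaged 4613 ± 1420 FPKM (SD, n = 7) over AIMD mice and 2705 ± 806 (SD, n = 8) over vehicle-treated mice and rose by 0.76 (adjusted p = 0.015 by limma). Gucy2c, the guanylin receptor, fell by 0.40, with 6 of 7 AIMD mice below every vehicle-treated mouse. Its call was lost without AIMD replicate 2 or 6 or vehicle replicate 6 (-0.38 to -0.32, adjusted p = 0.051 to 0.057). Prkg2, the cGMP-dependent kinase that acts on Cftr and Slc9a3, fell by 1.19 (adjusted p = 0.0071), and its vehicle values followed the clock split. On the Arntl-high side it was 22.4 to 26.2 FPKM in vehicle-treated mice against 4.98 to 8.51 in AIMD mice, and on the other side 5.58 to 11.6 against 4.44 to 6.40, where the groups overlapped. Adcy6, an adenylyl cyclase, rose by 0.71.

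Ion pumps and channels of the opposite membrane are needed to keep the luminal transporters running. Atp1b1, the beta subunit of the sodium pump, rose by 0.60 while Atp1b3, another beta subunit, fell by 0.50. Atp1b3 ran from 31.9 to 43.7 FPKM in AIMD mice and from 44.3 to 62.6 in vehicle-treated mice. The share of all genes tested that separated downward is not given here, so that separation is a description only. Fxyd3, a modulator of the pump, rose by 0.80 (adjusted p = 0.025 by limma), but missed the threshold without AIMD replicate 2 (0.69, adjusted p = 0.056). Of 5 tested potassium channels only Kcnk5 was higher, by 0.76 (adjusted p = 0.00098). Of 5 tested chloride channels Best2, of goblet cells, rose by 0.75 (adjusted p = 0.022) and Clcn2 by 0.52. Of 2 tested bicarbonate cotransporters Slc4a4 was higher, by 0.79 (adjusted p = 0.0099). The 3 tested anion exchangers and the 3 tested cation chloride cotransporters outside the members had no gene past the threshold.

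**Figure D4:**
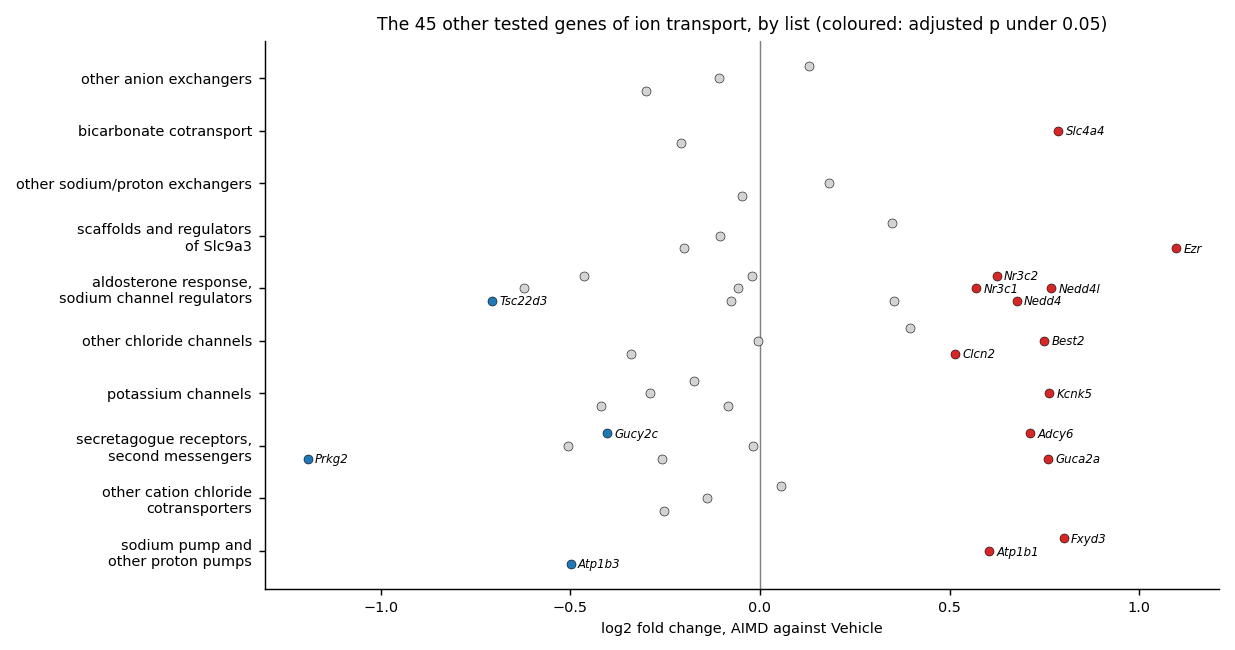
Log2 fold change of AIMD against vehicle-treated mice (horizontal axis) for the 45 tested genes that act with the transporters, 1 row per list, red for genes higher and blue for genes lower at an adjusted p under 0.05, grey for the others. Ezr lies farthest to the right at 1.10 and Prkg2 farthest to the left at -1.19, and 28 of the 45 genes are grey.

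Mice also differed along the clock axis, the first principal component of 14 clock genes centred within groups, which held 92.2% of their variance. Along it, 3 of the 9 tested members were lower where Arntl was high. Per SD of the axis, Slc26a3 changed by -0.36 (adjusted p = 0.014 by limma), Slc26a2 by -0.25 (adjusted p = 0.015) and Slc9a2 by -0.22 (adjusted p = 0.023), against 9.67% of all genes that were lower there. Slc26a3 was 354 to 780 FPKM in the 4 vehicle-treated mice of the Arntl-low side and 257 to 438 in the 4 of the other side, and 459 to 629 and 306 to 446 in the AIMD mice. The call of Slc9a2 was lost without AIMD replicate 2 (-0.19) or without vehicle replicate 1 (-0.18).

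Scnn1b was at -0.33 per SD of the axis and did not pass (adjusted p = 0.21 by limma), but at -0.59 with an adjusted p of 0.0011 when vehicle replicate 8 was left out. The other vehicle-treated mice of the Arntl-low side had 6.39 to 8.85 FPKM, and the 4 of the Arntl-high side 2.31 to 2.83. Slc9a3 was at -0.11 (adjusted p = 0.69), Scnn1a at -0.09 (0.39), Scnn1g at -0.06 (0.67), Cftr at 0.12 (0.40) and Slc12a2 at 0.01 (0.94), all from limma. Treatment differences held their direction on both sides of the split for Slc9a3 (2.23 on the Arntl-high side and 3.14 on the other), Slc9a2 (0.75 and 0.70), Scnn1a (0.66 and 1.00), Scnn1g (1.02 and 1.27) and Slc12a2 (-0.66 and -0.23). Those of Slc26a3 (0.30 and -0.08) and Cftr (-0.56 and 0.16) changed sign. The Arntl-low side holds vehicle replicate 8, whose Cftr of 6.92 FPKM lay far below the next vehicle-treated mouse at 16.8.

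**Figure D5:**
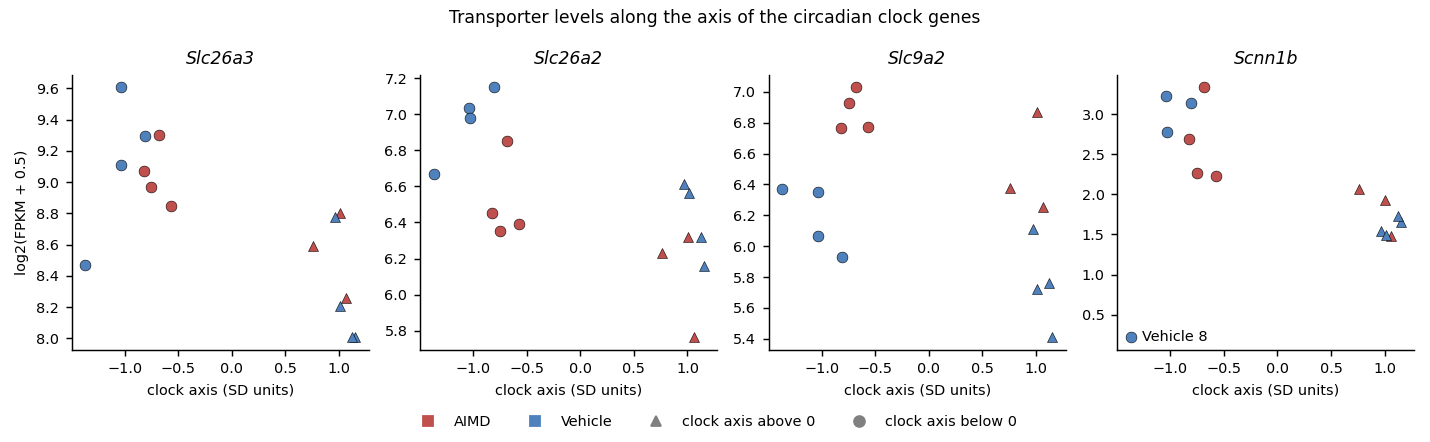
Level of 4 transporter genes as log2(FPKM + 0.5) (vertical axes) against the clock axis in SD units (horizontal axes), positive where Arntl is high, AIMD mice in red and vehicle-treated mice in blue. The 15 mice form 2 clusters, and Slc26a3, Slc26a2 and Slc9a2 are lower in the right one, while vehicle replicate 8 stands apart in the Scnn1b panel.

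The genes whose pattern was most like that of the 3 most abundant members were taken from all tested genes by Pearson r over 15 mice, centred within groups. Sema3c (0.976), Fam110c (0.974) and Itch (0.974) were most like Slc26a3. Pdcd6ip (0.959), Clasp1 (0.956) and Cnnm4 (0.953) were most like Slc26a2, and Avl9 (0.957), Crebrf (0.933) and Erbb3 (0.926) were most like Slc9a2. The values of a mouse come from 1 library, and the mice share the clock split, so the coefficients are a description only. For Slc9a3, looked up after its values were seen, the nearest genes were Ripk1 (0.952), Slc10a5 (0.939) and Gm11545 (0.910). Ripk1, a kinase of cell death signalling, averaged 2.82 ± 1.35 FPKM (SD, n = 7) over AIMD mice and 0.457 ± 0.159 (SD, n = 8) over vehicle-treated mice and rose by 1.71 on the log2 scale (adjusted p = 1.7e-05 by limma).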

How the data were processed

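Poly-A selected, stranded libraries from the ceca of 7 AIMD mice and 8 vehicle-treated mice were sequenced with single reads of 50 bases. Alignment to GRCm38 used STAR, and featureCounts with GENCODE annotation gave the counts from which the authors made the deposited FPKM, by gene symbol and without pooling mice. How counts became FPKM is not given in the sources used here. The authors' own model had treatment and time of sacrifice as factors, and the labels do not give the time.

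Of 45808 rows, 27 carried a date in place of a symbol, and 4 were left out because their symbol stood more than once. FPKM were divided by size factors from 13594 genes, 0.5 was added and log2 was taken. The factors were 0.9999 to 1.0001, so the deposited FPKM were already level by this measure and the division changed almost nothing. The 11983 genes that reached 0.5 FPKM in 7 or more mice entered a limma 3.58.1 fit (lmFit, then eBayes with its trend option; R 4.3.3), two-sided, with a Benjamini–Hochberg adjusted p under 0.05. Whole reads were recovered from the FPKM of 24278 of 24279 genes above 0 (tolerance 0.005 reads) and gave the depths, and their number limits the precision of low genes. For 67.284% of these genes the GENCODE M21 exon length gave whole reads, and for the rest another length did, as for Slc9a3, Scnn1b, Slc12a2 and Atp12a. That other length was about the shortest that gave whole reads, so a longer one would raise the read counts. Of the members, Slc26a2 shared 0.71% of its 50-base windows with other genes and the rest none. Ratios were compared by exact permutation over all splits of the mice, and 0.5 was added to those with Slc9a3 or Scnn1g. Replicate numbers did not pair the mice. Other steps used Python 3.11.15, numpy 2.4.6, pandas 2.3.3 and scipy 1.17.1, and the scripts were tested on simulated data.

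The members and gene lists were chosen with earlier results of these data known. From the lists, 3 genes are not reported here and were taken out of every count of the lists. All members are named, as are the pathway genes past the threshold, the 12 with the largest change in full, and the 3 genes most like each of the 3 most abundant members. The other scalings, pseudocounts, filters, tests and left-out mice tried are given at the end.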

Additional observations from a re-analysis of the deposited data

Results flagged for a closer look

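A mouse was taken as far from its group when the gap between the highest or lowest value and the next, divided by the range of the group, passed the critical value of Dixon's test. Of 32 groups of values, 6 passed, where chance flags about 1 in 20 for normal values. The ratios reuse the values of the members, and most vehicle values of Slc9a3 lie near 0. The number that passed is therefore not read against chance. Vehicle replicate 2 had Slc9a3 at 0.743 FPKM with the next vehicle-treated mouse at 0.184, and so had a log2 ratio of Slc9a2 to Slc9a3 of 5.45 with the next at 6.41. AIMD replicate 4 had Scnn1g at 2.49 FPKM with the next AIMD mouse at 1.30. Vehicle replicate 8 had Cftr at 6.92 FPKM with the next at 16.8, and a log2 ratio of Cftr to Slc12a2 of -1.39 with the next at -0.70. AIMD replicate 2 had a log2 ratio of Slc26a3 to Cftr of 4.47 with the next AIMD mouse at 4.90.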

How the results depend on the processing

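The log2 fold changes of Slc9a3, Slc9a2, Scnn1a and Scnn1g kept their direction and stayed past the threshold under all alternatives run. Scaling to a common total gave 0.0070 for Slc26a2, 0.17 for Cftr and -0.081 for Slc12a2, with 4467 genes higher (2323 with size factors), 705 lower (1998 with size factors) and 0 members lower. With the depth covariate, added later, Slc12a2 was at -0.41 and 0 members were lower. With the clock axis in the model Slc26a2 passed at -0.35 (limma adjusted p = 0.033), 2 members were lower and 7 of the other transport genes were lower in place of 4. Without the 4 mice with high Fabp6 the other transport genes gave 8 higher in place of 13 and 2 lower. After quantile normalization the clock coefficient of Slc12a2 was -0.014.

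The replicate numbers did not pair the mice, as the correlations of deviations between same-numbered mice ran from -0.35 to 0.43. A replicate block left vehicle replicate 8 without a partner, and then Cftr was at -0.36 (limma adjusted p = 0.025) and 2 members were lower. It changed no other call of the members.

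With each mouse left out in turn, Cftr ran from -0.36 to -0.12 and members lower from 1 to 2, both at their end without vehicle replicate 8. The log2 ratio of Scnn1g to Scnn1b ran from 0.70 to 1.06, with an unadjusted exact permutation p of 0.0099 to 0.088. Clock coefficients ran from -0.25 to -0.18 for Slc9a2, -0.59 to -0.24 for Scnn1b, -0.10 to 0.0076 for Scnn1g, -0.025 to 0.15 for Cftr and -0.043 to 0.045 for Slc12a2. Cftr was at its lowest without vehicle replicate 8, Scnn1g at its highest without vehicle replicate 1, and Slc12a2 was below 0 without AIMD replicate 5 or vehicle replicates 1, 4, 7 or 8. Of the other transport genes, 5 gained a call without 1 mouse, namely Guca2b (when any 1 of 4 mice was left out, -0.63 to -0.56), Kcnn4 (-0.51) without AIMD replicate 2, Clcn3 (-0.45) without AIMD replicate 4, Clca1 (0.52) without AIMD replicate 7 and Slc9a3r1 (0.52) without vehicle replicate 8. The causes were not tested. Low counts limit Atp12a in both groups and Slc9a3 and Scnn1g in vehicle-treated mice.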
